A study of Mus musculus with 4 samples.

Results

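A set of 10 genes of nitric oxide (NO) and cGMP signalling was looked up in the list of Zeb1 peaks deposited for mouse embryonic stem cells (mESC), namely Nos1, Nos2, Nos3, Nos1ap, Cav1, Ddah1, Ddah2, Prkg1, Prkg2 and Pde5a. A peak was taken as belonging to a gene when the gene symbol that the authors assigned to it was that of the gene. By this rule 7 of the 10 genes had at least 1 peak, and 9 of the 17435 peaks of the list belonged to them. Nos3, Nos1ap and Cav1 had none. The data came from chromatin immunoprecipitation followed by sequencing (ChIP-seq), which recovers DNA fragments bound by a protein, here the transcriptional repressor Zeb1. There were 3 Zeb1 ChIP libraries made with 8 μg of an anti-Zeb1 antibody, and 1 input library made with no antibody, which gives the background. All 4 came from the mouse ES cell line D3 at passages 5 to 8, cross-linked with 1% formaldehyde and sheared to 200 bp. The cells grew without feeders in ground state medium (GS), in which PD0325901 (1 μM) blocks MEK, CHIR99021 (3 μM) blocks GSK-3, and LIF is added at 20 ng/mL. The list gives 1 mean per peak over the libraries, so no value below has a replicate error and none was tested.

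NO is made from arginine by NO synthases, which are encoded by Nos1 (neuronal), Nos2 (inducible) and Nos3 (endothelial). NO activates soluble guanylate cyclase, the cGMP formed turns on cGMP-dependent protein kinases such as those of Prkg1 and Prkg2, and phosphodiesterases such as that of Pde5a break cGMP down. The synthases are held in check by asymmetric dimethylarginine (ADMA), which Ddah1 and Ddah2 remove, and by partners such as caveolin-1, the product of Cav1. In vessels this pathway relaxes smooth muscle, and it also acts in neurons and platelets.

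Of 21000 protein-coding genes with a curated RefSeq transcript, 53.3% had at least 1 assigned peak, beside 7 of the 10 NO and cGMP genes. Within 5 kb of the transcription start site (TSS), by the deposited distance, 6 of the 10 genes had an assigned peak, beside 45.1% of the protein-coding genes. The gene with assigned peaks only farther away was Nos1. Nos1 and Prkg1 had 2 assigned peaks each and the other 5 genes had 1, while 17.9% of the protein-coding genes with a peak had 2. Within 1 kb of the TSS, 4 of the 10 had an assigned peak, namely Ddah1, Prkg1, Prkg2 and Pde5a, beside 41.1%. The members thus stood above the share of all genes at 5 kb and not at 1 kb, on small counts, and the differences were not tested. These distances run from the peak centre to the TSS used in the list. Nos2 and Ddah2, which drop out at 1 kb, each had a curated RefSeq start inside their peak. A curated start lay inside a peak in 6 of the 10 genes, beside 10033 of the 21000.

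The 9 peaks had between 36 and 103 treatment reads, with a median of 50.3, beside a median of 47.4 over the whole list. Their input reads ran from 4.71 to 26.9 with a median of 13.1, and 2 of the 9 peaks lay above the list's median of 16. Enrichment is the authors' ratio of treatment to input, which the legend of the list describes as adjusted for mapped reads, and its median was 7.67 in the 9 peaks and 6.5 in the list. It is not the quotient of the deposited reads, whose median was 3.82 in the 9 peaks and 3.12 in the list, and the cause of the difference was not tested. By enrichment the order was Nos1 upstream peak (17.6), Prkg1 upstream peak (11.3), Nos1 downstream peak (8.72), Prkg1 downstream peak (8.21), Pde5a (7.67), Ddah1 (7.13), Nos2 (6.75), Ddah2 (6.36) and Prkg2 (5.3). In all, 7 of the 9 exceeded the median of the list. With no spread between libraries given in the list, no neighbours in this order can be said to differ. By treatment reads per kb of peak, which takes out peak length, the order was another, with Pde5a first at 36.1 and the Nos1 upstream peak last at 20.9, and 4 of the 9 peaks lay above the list's median of 25.1.

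**Figure D1:**
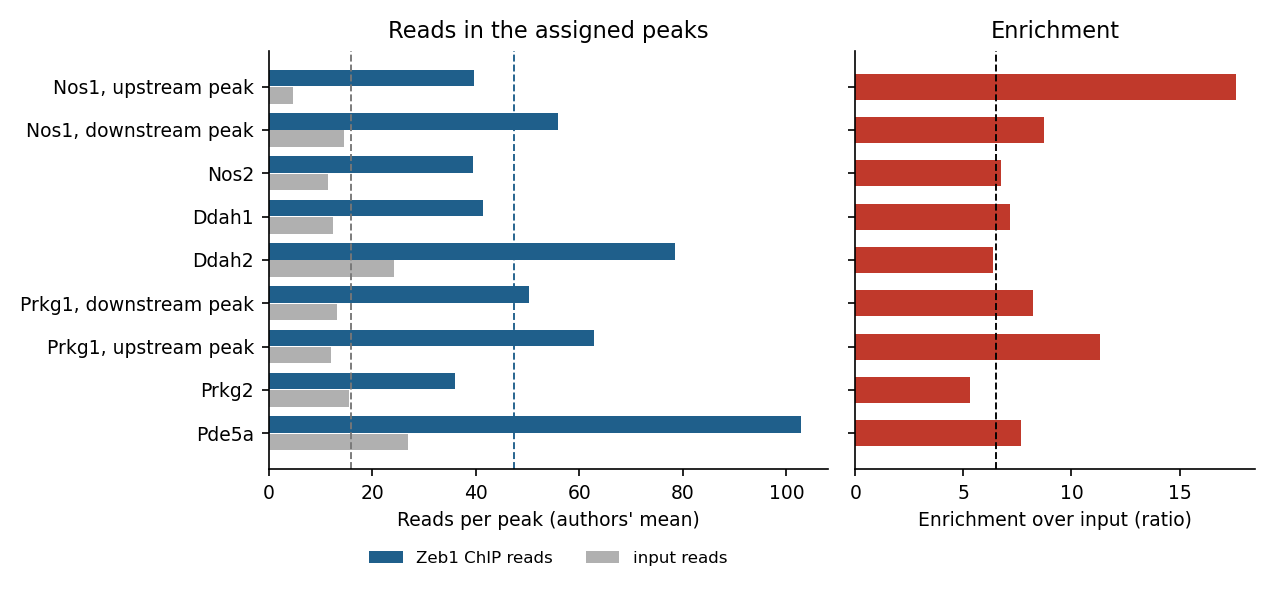
Left, mean Zeb1 ChIP reads (blue) and input reads (gray) in each of the 9 assigned peaks, and right, enrichment over input, with upstream and downstream peaks named along the gene and dashed lines at the medians of all 17435 peaks. Pde5a had the most ChIP reads, 103, and the Nos1 upstream peak had the fewest input reads, 4.71, and the highest enrichment, 17.6.

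**Figure D2:**
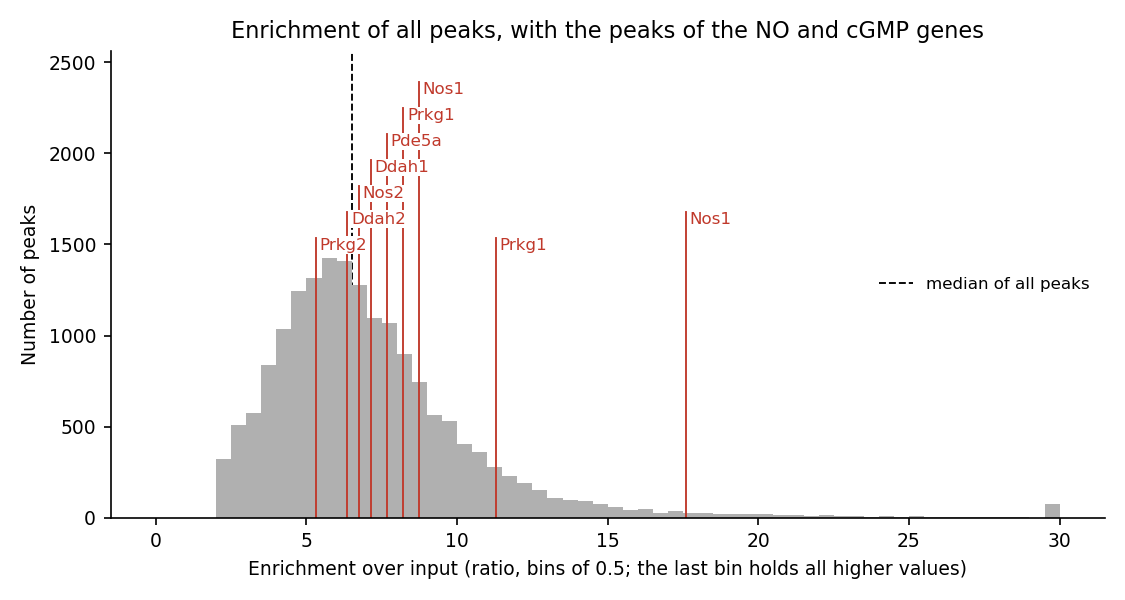
Number of peaks of the whole list by enrichment over input (gray bars), with a red line at the enrichment of each assigned peak and a dashed line at the median of 6.5. The peaks of Ddah2 and Prkg2 lie below the median, and the upper peaks of Prkg1 (11.3) and Nos1 (17.6) lie in the tail.

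Nos1, the neuronal synthase, lies on the forward strand of chromosome 5 at chr5:117866839-117958840 in GRCm38.p6, the assembly of the list (mm10). Its upstream peak, chr5:117780251-117782150, was centred 85919 bp before the TSS used in the list. With 39.7 treatment and 4.71 input reads it stood at 17.6 in enrichment, higher than 98.1% of the list. Fewer input reads were found in 1.65% of all peaks and fewer treatment reads in 34.4%. The cause of the high ratio was not tested. The downstream peak, chr5:117841401-117844000, was centred 24419 bp before that TSS, with 55.8 treatment and 14.6 input reads and an enrichment of 8.72. Both lie outside the RefSeq transcript and were annotated by the authors as intronic in an Ensembl model of Nos1, while their detailed annotation gives both as intergenic. In GENCODE M21, however, each peak held 2 start sites of Nos1 itself. The centre of the upstream peak was 145 bp downstream of the start at 117781055, and a start of a protein-coding transcript lay at 117781032. The centre of the downstream peak was 514 bp downstream of the start at 117842186, and a start of a protein-coding transcript lay at 117841850. The RefSeq start at 117866839 was in no peak.

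To let the reader compare starts of Nos1 inside and outside peaks, 300 bases are printed around a start in each peak and around the RefSeq start. The windows run from 250 before to 50 from the start site on, 5′ to 3′ on the forward strand of GRCm38. Not every annotated start of Nos1 is shown. Here and below, capitals mark a match of the Zeb1 motif, spelled CNCACCTG, CNTACCTG, TNCACCTG or TNTACCTG and searched on both strands. The first is chr5:117780782-117781081 in the upstream peak, the next chr5:117841600-117841899 in the downstream peak and the last the RefSeq promoter, chr5:117866589-117866888.
Nos1, start in the upstream peak: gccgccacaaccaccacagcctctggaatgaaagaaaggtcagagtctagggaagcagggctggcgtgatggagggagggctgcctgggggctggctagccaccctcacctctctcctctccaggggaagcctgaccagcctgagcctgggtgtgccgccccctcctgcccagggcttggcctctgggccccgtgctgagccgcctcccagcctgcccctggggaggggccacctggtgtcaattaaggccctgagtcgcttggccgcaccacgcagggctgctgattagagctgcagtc
Nos1, start in the downstream peak: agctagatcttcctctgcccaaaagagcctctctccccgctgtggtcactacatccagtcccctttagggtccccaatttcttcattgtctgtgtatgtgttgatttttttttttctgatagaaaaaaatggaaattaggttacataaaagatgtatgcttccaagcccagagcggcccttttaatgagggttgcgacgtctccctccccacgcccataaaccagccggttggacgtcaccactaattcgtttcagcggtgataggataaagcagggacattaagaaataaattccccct
Nos1, RefSeq start outside peaks: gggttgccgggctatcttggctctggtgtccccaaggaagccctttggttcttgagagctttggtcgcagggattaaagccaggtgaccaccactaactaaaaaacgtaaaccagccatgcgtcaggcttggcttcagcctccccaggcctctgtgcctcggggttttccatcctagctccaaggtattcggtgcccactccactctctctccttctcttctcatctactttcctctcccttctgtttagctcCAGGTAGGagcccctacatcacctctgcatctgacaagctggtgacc
The RefSeq promoter, outside peaks, is the one with a match among these 3 windows.

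Nos2, the inducible synthase that macrophages raise on activation, lies on the forward strand at chr11:78920787-78960226. Its peak, chr11:78924551-78925900, was among the shorter ones of the list at 1350 bp, with 39.5 treatment and 11.5 input reads at an enrichment of 6.75. The list places it 4366 bp downstream of the TSS and annotates it as promoter, and in RefSeq its centre falls in intron 2 of 26 of the longest transcript. RefSeq holds 2 further Nos2 starts, at 78924740 and 78925291, and both fall inside the peak. Its centre was 66 bp upstream of the latter and 485 bp downstream of the former, while the start at 78920787 was 4438 bp away and in no peak. In the authors' detailed annotation it is CpG, as are the peaks of Pde5a and the upstream Prkg1 start, 3 of the 9 beside 14.6% of all peaks.

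Nos3, the endothelial synthase, lies on the forward strand at chr5:24364816-24384474 and had no assigned peak. Its start lay 12.2 kb from the centre of the nearest peak, chr5:24351801-24353350, which the authors assigned to the potassium channel gene Kcnh2 and which had an enrichment of 12.3. Past its end, 2.38 kb away, chr5:24386851-24389250 was assigned to the autophagy gene Atg9b with an enrichment of 5.31. Counted by overlap with the gene and 5 kb on either side, Nos3 would have a peak and Nos1 would not. By that rule 7 of the 10 genes had a peak, 6 of them shared with the assignment by the authors, and 58.8% of the protein-coding genes had one.

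Nos1ap encodes an adaptor that binds the neuronal synthase, and Cav1 the caveolin that binds the endothelial one. The Nos1ap gene spans 274 kb on the reverse strand, chr1:170315467-170589849, and held no peak over its length or within 10 kb of it. The nearest peaks were chr1:170643751-170645150, 53.9 kb upstream of the gene, assigned to Olfml2b with an enrichment of 6.06, and chr1:170214401-170215950, 99.5 kb downstream, assigned to Uhmk1 with 3.78. Cav1, on the forward strand at chr6:17306335-17341328, had its nearest peak 24.5 kb upstream, chr6:17280401-17281850. This peak was assigned to the neighbouring caveolin gene Cav2, was centred 60 bp upstream of the Cav2 TSS and had an enrichment of 5.94. On the other side the next peak was 122 kb away, chr6:17462851-17465000, assigned to Met with an enrichment of 5.36. All 4 of these neighbours were promoter peaks of their own genes.

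The promoters of the main Nos1ap and Cav1 transcripts are printed to set sequences outside peaks beside those inside peaks below, each 300 bases of the RefSeq table for GRCm38.p6. They are chr1:170589800-170590099 on the reverse strand and chr6:17306085-17306384 on the forward strand.
Nos1ap, start outside peaks: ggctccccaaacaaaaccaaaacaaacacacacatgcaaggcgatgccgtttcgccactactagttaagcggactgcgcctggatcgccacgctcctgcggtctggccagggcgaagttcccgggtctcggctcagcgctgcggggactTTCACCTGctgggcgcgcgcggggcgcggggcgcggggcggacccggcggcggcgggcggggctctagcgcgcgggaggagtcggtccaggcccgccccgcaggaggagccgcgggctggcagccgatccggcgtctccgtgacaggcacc
Cav1, start outside peaks: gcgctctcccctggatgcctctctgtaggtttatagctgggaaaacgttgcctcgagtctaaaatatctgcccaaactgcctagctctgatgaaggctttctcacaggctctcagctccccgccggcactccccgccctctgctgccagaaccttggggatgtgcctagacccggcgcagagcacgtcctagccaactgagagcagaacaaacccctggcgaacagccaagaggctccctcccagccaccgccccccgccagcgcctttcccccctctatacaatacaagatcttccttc
The Nos1ap promoter holds a match, TTCACCTG, and the Cav1 promoter holds none.

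Ddah1 and Ddah2 encode the hydrolases that degrade ADMA, and both had a peak over the TSS. At Ddah1, on the forward strand at chr3:145758692-145894277, the peak chr3:145757901-145759800 was centred 158 bp downstream of the TSS in the 5′ UTR of exon 1 of 6. Its 41.3 treatment reads over 12.3 input reads came with an enrichment of 7.13. At Ddah2, on the forward strand at chr17:35059035-35062099, the peak chr17:35058401-35061850 was centred 1090 bp downstream of the TSS in the 5′ UTR of exon 2 of 7. Reads were more on both sides, 78.6 and 24.3, at an enrichment of 6.36. Ddah2 is the shortest of the 10 genes at 3.06 kb, and its peak, the longest of the 9 at 3450 bp, covered 91.9% of it. Per kb, the 2 peaks were nearly level, with 21.8 treatment reads at Ddah1 and 22.8 at Ddah2, so that the difference in reads per peak went with length. The Ddah1 promoter, chr3:145758442-145758741 on the forward strand, starts in a peak and holds a match, 172 bp upstream of the start.
Ddah1, start in a peak: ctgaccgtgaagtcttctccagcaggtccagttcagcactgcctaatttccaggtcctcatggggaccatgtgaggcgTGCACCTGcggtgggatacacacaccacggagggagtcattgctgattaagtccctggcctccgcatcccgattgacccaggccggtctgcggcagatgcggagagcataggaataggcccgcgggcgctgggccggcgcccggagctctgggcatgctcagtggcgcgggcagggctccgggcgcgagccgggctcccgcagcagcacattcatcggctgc

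Prkg1 encodes the widely expressed cGMP-dependent kinase of smooth muscle, made in I alpha and I beta forms from alternative first exons. It lies on the reverse strand at chr19:30564487-31765268 and was the longest of the 10 genes at 1201 kb. Its 2 curated RefSeq starts, 101 kb apart at 31765033 and 31664370, each had a peak of their own. The upstream peak, chr19:31763551-31765450, was centred 533 bp downstream of its start in intron 1, with 62.9 treatment and 12 input reads and an enrichment of 11.3, above 90.6% of all peaks. The downstream peak, chr19:31663401-31665250, was centred 45 bp downstream of its start in the 5′ UTR of exon 1, with 50.3 treatment and 13.1 input reads and an enrichment of 8.21. Both starts were thus covered, at similar input.

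A further peak lay in the Prkg1 gene but was assigned to Gm6642, whose TSS is 167 kb away. This peak, chr19:30762851-30764150, was centred in intron 7 of 17, and the authors' detailed annotation names it as an L1Md_T element of the LINE-1 retrotransposon family. Its enrichment of 24.65, from 31.5 treatment and 3 input reads, exceeds those of all 9 assigned peaks and of 99.3% of the list. This peak was named after its values were seen. As at the Nos1 upstream peak, the input was low, with 0.396% of all peaks below it. Among the 1203 peaks that the list places on L1Md_T elements the median enrichment was 7.6, and 95.4% were below this one. Peaks covered 0.405% of the Prkg1 gene in all. The 2 promoters, printed to show the 2 starts of 1 gene that lie in peaks, are chr19:31764984-31765283 and chr19:31664321-31664620, both on the reverse strand.
Prkg1, upstream start in a peak: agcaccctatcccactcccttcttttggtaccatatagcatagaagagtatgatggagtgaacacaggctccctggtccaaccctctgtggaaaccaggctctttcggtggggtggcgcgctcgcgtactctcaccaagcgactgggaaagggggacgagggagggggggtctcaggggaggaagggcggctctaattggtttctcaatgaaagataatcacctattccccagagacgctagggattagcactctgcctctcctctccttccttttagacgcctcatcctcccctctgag
Prkg1, downstream start in a peak: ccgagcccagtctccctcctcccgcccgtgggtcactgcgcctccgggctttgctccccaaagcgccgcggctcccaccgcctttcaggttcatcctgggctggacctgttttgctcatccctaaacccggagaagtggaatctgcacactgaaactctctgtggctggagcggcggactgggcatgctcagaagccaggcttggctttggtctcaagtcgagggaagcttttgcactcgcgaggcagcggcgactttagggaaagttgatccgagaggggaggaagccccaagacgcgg
Neither window holds a match of the motif.

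Prkg2 encodes the membrane-bound kinase known from intestine, bone and brain. It lies on the reverse strand at chr5:98929773-99037375, and its peak, chr5:99036151-99037850, was centred 79 bp downstream of the TSS in the 5′ UTR of exon 1 of 19. The peak had the fewest treatment reads of the 9, 36, with 15.5 input reads and the lowest enrichment, 5.3, which put it in the lower part of the list. Its input per kb, 9.12, was above the list's median of 8.07, whereas that of both Prkg1 peaks was below it.

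Pde5a encodes the cGMP-specific phosphodiesterase that sildenafil inhibits. It lies on the forward strand at chr3:122729158-122859374, and its peak, chr3:122728301-122731150, was centred 567 bp downstream of the TSS in intron 1 of 20 and is CpG in the authors' detailed annotation. It led the 9 peaks in treatment reads, with 103, and in input reads, with 26.9, and it was 2850 bp long. Fewer treatment reads were found in 93.8% of all peaks, fewer input reads in 88.0%, and a lower enrichment, 7.67 here, in 65.6%. The promoter is chr3:122728908-122729207 on the forward strand.
Pde5a, start in a peak: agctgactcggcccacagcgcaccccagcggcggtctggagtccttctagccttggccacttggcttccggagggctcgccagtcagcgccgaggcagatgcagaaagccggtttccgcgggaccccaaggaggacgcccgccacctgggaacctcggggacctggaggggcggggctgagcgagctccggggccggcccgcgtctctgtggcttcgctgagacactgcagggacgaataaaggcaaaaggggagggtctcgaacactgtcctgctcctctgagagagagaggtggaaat
It holds the 6 letters CACCTG but none of the 4 spellings of the 8-letter motif.

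The 9 peaks had in common, beyond the assignment, that each held an annotated start of its own gene. A curated RefSeq start of the gene lay in 7 of the 9, beside 55.2% of the peaks of the list whose gene has starts in both annotations. With GENCODE starts added it was all 9, beside 59.0%. Of list peaks more than 5 kb from the TSS, 7.69% held a start of the assigned gene in either annotation, and both Nos1 peaks were of this kind. No start of another gene fell in any of the 9 peaks. Seen from the starts, 8 of the 15 curated RefSeq starts of the 10 genes were inside a peak, beside 45.6% of such starts over all protein-coding genes. In GENCODE it was 19 of 50, beside 38.4%. Of the 9 centres, 7 lay downstream of the TSS used in the list, beside 68.3% of all peaks, and the 2 upstream were those of Nos1.

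**Figure D3:**
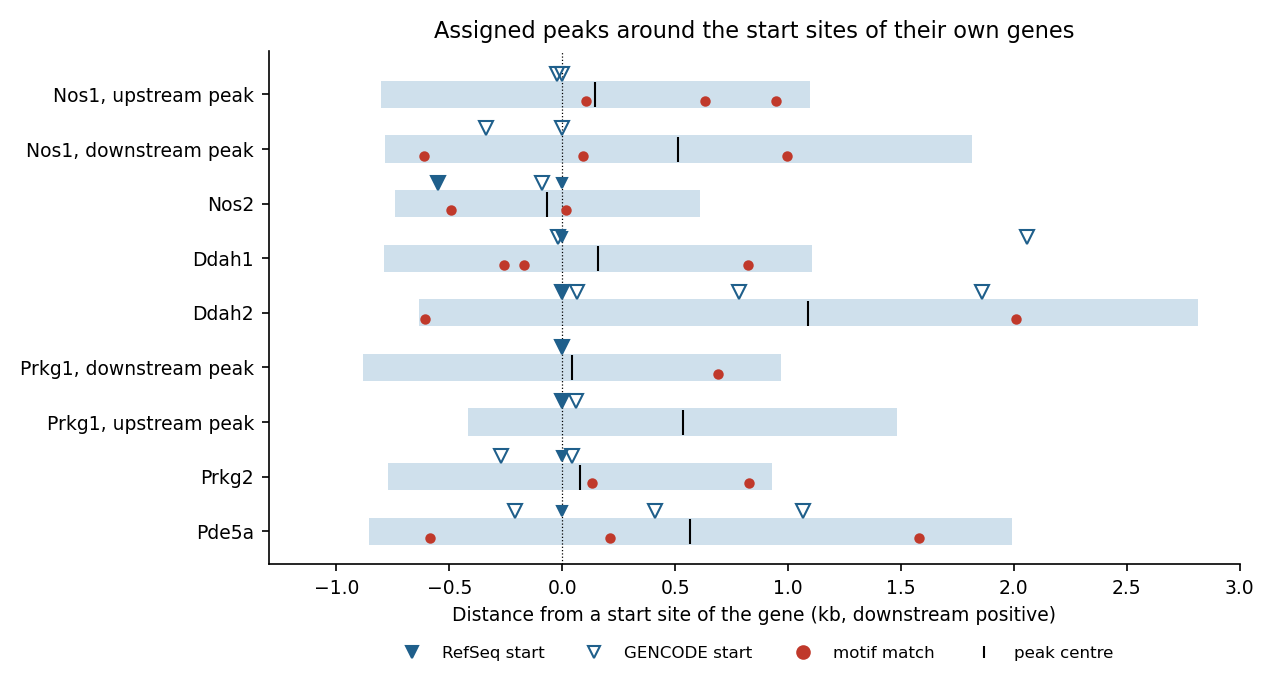
Extent of each assigned peak (bars) in kb from a start site of its gene, a RefSeq start where one lies in the peak and a GENCODE start for Nos1, with downstream to the right. Filled triangles are RefSeq starts, open triangles GENCODE starts, black ticks peak centres and red dots motif matches. Each bar spans at least 1 start of its gene, and the upstream Prkg1 peak has no red dot.

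The 8-letter motif was found in 8 of the 9 peaks, beside 76.8% of all peaks, and CACCTG in 8 of the 9, beside 82.1%. The exception in both searches was the upstream Prkg1 peak, which ranked next to the top by enrichment and held no match in 1900 bp. Of the 538 peaks of that length, 77.0% held a match. The other 8 peaks held 1 to 3 matches each, 19 in all, or 0.974 per kb beside 0.889 per kb over all peaks. Of the 19, 8 were spelled TNCACCTG, 7 CNCACCTG, 3 CNTACCTG and 1 TNTACCTG. The share of all peaks of the same length with a match was 65.0% for Nos2 (1350 bp, 2 matches), 70.7% for Prkg2 (1700 bp, 2 matches), 76.3% for the downstream Prkg1 peak (1850 bp, 1 match) and 77.0% for Ddah1 and the Nos1 upstream peak (1900 bp, 3 matches each). It was 84.3% for the Nos1 downstream peak (2600 bp, 3 matches), 85.4% for Pde5a (2850 bp, 3 matches) and 91.8% for Ddah2 (3450 bp, 2 matches). Peaks of these lengths thus mostly hold the letters. In the 300 bp at the peak centre, 3 of the 9 had a match, in the Nos1 upstream, Nos2 and Prkg2 peaks, beside 23.7% of all peaks.

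Read on the opposite strand, the motif contains CAGGT, and this is also how the end of an exon and the start of its intron commonly read at a splice donor. The overlap was looked for after the matches had been seen. Of the 19 matches, 4 lay exactly on a donor annotated in RefSeq or GENCODE, beside 15.0% of the 32824 matches in all peaks. They were CCCACCTG in the Nos1 upstream peak, 102 bp downstream of the start, CTCACCTG in the Nos1 downstream peak, 89 bp downstream, TGTACCTG in the Nos2 peak, 13 bp downstream, and CTTACCTG in the Pde5a peak, 207 bp downstream. A match on a donor was thus present in 4 of the 9 peaks, beside 22.7% of all peaks. Without such matches, 8 of the 9 peaks still held the motif, beside 71.0% of all peaks. The matches of Nos1 and Pde5a are printed in 30 bases on the strand of the gene, where the first 3 capitals end the exon and the remainder opens the intron. Their positions are chr5:117781146-117781175, chr5:117842264-117842293 and chr3:122729354-122729383, all on the forward strand.
Nos1, upstream peak: cccgtgagtagCAGGTGGGgggctctgtcc
Nos1, downstream peak: gggctcggcagCAGGTGAGttctcagcctt
Pde5a: agaaaggccacCAGGTAAGaagaggagcca
Both Nos1 donors are annotated in GENCODE and that of Pde5a in RefSeq.

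Promoter sequences of 300 bp in the RefSeq table were found for 7 of the 10 genes, with 10 promoters in all. Nos2, Nos3 and Prkg2 had no entry. Start sites lay in a peak for 5 of the 10 promoters, those of Ddah1, Ddah2, Pde5a and both of Prkg1, beside 32.9% of the 32851 promoters of the table. The motif was present in 4 of the 10, beside 16.9% of all promoters, and CACCTG in 5, beside 20.2%. Of the 4 with the motif in this table, the Ddah1 promoter was in a peak, and those of Nos1, Nos1ap and the downstream Cav1 start were not. Motif and peak were thus both present in 1 of these 10 promoters. The share of all promoters with both was not taken, so this count is not read as low or high.

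CpG content, the number of CG dinucleotides over that expected from the C and G present, had a median of 0.568 in the 10 promoters, beside 0.384 in all promoters, 0.797 in those with the start in a peak and 0.241 in the others. Over the whole table, the start was in a peak in 72.8% of promoters of high CpG content (at least 0.6), 33.0% of those between 0.4 and 0.6, and 5.05% of those below 0.4. Among the NO and cGMP genes it was 3 of 5, 2 of 3 and 0 of 2 in the same order. The 5 promoters in a peak ran from 0.436 at the upstream Prkg1 start to 0.712 at Ddah1, and the 5 outside from 0.278 at Nos1 to 1.01 at Nos1ap, so the ranges overlapped. The main Nos1ap promoter had a CpG content above 94.8% of all promoters and a match of the motif, with no peak within 10 kb of the gene. Of the 1311 promoters of the table with a CpG content from 1 to 1.1, 79.0% had the start in a peak and the remainder did not.

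**Figure D4:**
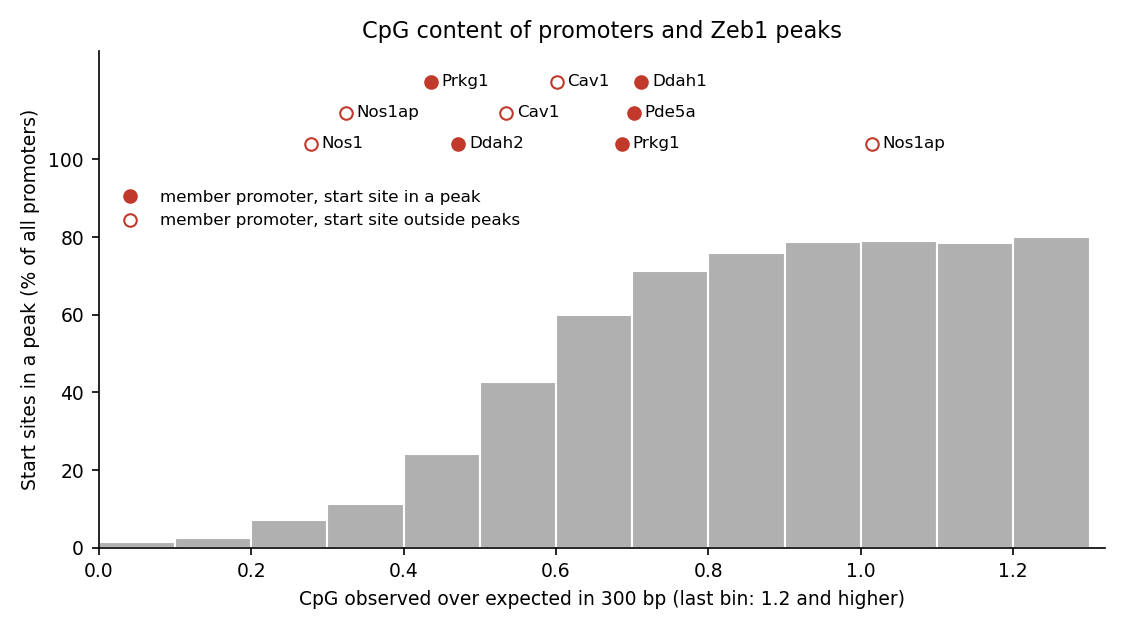
Share of all RefSeq promoters whose start site lies in a Zeb1 peak (bars, percent) by CpG content in 300 bp, with the 10 promoters of the NO and cGMP genes placed by their CpG content above the bars, filled where the start is in a peak. The height of the circles only separates their names. The filled circles lie between 0.436 and 0.712, and the open circle farthest to the right is Nos1ap at 1.01.

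The wider pathway was described with 76 further genes in 11 roles. An assigned peak within 5 kb of the TSS was found for 40 of the 76, beside 45.1% of protein-coding genes, and any assigned peak for 48, beside 53.3%. The best such peak per gene had a median enrichment of 8.31 in the 40 genes, 6.94 in the 6 NO and cGMP genes above and 6.84 in all protein-coding genes.

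Of the subunits of soluble guanylate cyclase, the NO receptor, 3 of 4 had a peak within 1 kb of the TSS, beside 41.1% of protein-coding genes. By promoter CpG content Gucy1a2 is of the high class, Gucy1a1 and Gucy1b2 of the middle class and Gucy1b1 of the low class. At Gucy1a1, chr3:82144351-82146200 was centred 602 bp downstream of the TSS, with 35 treatment and 9.5 input reads and an enrichment of 8.55. At Gucy1b1, whose product pairs with that of Gucy1a1, chr3:82073101-82074950 was centred 686 bp downstream, with 39 treatment and 11.5 input reads and an enrichment of 6.5. Gucy1a2 had chr9:3531701-3533600, centred 301 bp downstream with 71.6 treatment and 12.9 input reads and an enrichment of 12.5. It also had a peak 356 kb downstream of the TSS with an enrichment of 18.8 and 9.43 input reads. The authors' detailed annotation names that far peak as an L1Md_F element of the LINE-1 family. Gucy1b2 had no assigned peak. The list carries Gucy1a1 and Gucy1b1 under their older symbols, Gucy1a3 and Gucy1b3. Among these subunits, peaks at the TSS were thus found in each class of CpG content.

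The highest enrichment of a peak within 5 kb of the TSS was found at Akt1, a kinase that phosphorylates the endothelial synthase, with 19.25 and a centre 3101 bp downstream of the TSS. Among the highest were also the phosphodiesterase gene Pde10a with 14.6, Nppc, which encodes C-type natriuretic peptide, with 12.7, and Gucy1a2. Akt1 also had few input reads, 7, beside 50 treatment reads. The arginine transporter gene Slc7a1 had the most assigned peaks of the 76 genes, 3, of which 1 was centred 279 bp downstream of the TSS with an enrichment of 7.01. The others were 146 and 164 kb downstream, with enrichments of 4.6 and 16.1 from 9.5 and 3.5 input reads. The authors' detailed annotation places them in intron 7 and exon 7 of the transcript NM_029920. By overlap with the gene and 5 kb on either side, Slc7a1 had 1 peak.

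By role, the genes below were named after their values were seen, and the counts are to be read beside the 45.1% found over protein-coding genes at the same distance of 5 kb. The list for S-nitrosothiol removal had a peak within 5 kb of the TSS in 5 of 5 genes, Adh5, Txn1, Txnrd1, Txnrd2 and Txnip. Their median enrichment was 5.45, beside 6.84 in all protein-coding genes. All 5 are of high CpG content, a class in which 68.3% of protein-coding genes had such a peak. The list for synthesis and recycling of tetrahydrobiopterin, the cofactor of the synthases, had such a peak in 6 of 7 genes, with a median of 8.62. In the role closest to Ddah1 and Ddah2, Prmt1, which methylates arginine, and Agxt2, which also degrades ADMA, had no assigned peak. Cyclic nucleotide-gated channels of the retina and olfactory neurons had one in 0 of 6 genes, although Cnga3, Cngb1 and Cngb3 had assigned peaks farther away. Those of Cngb3 are LINE-1 elements in the authors' detailed annotation. Of the 6 channel genes, 5 are of low CpG content, a class in which 10.5% of protein-coding genes had a peak within 5 kb. Cngb3 has no promoter in the table. Membrane guanylate cyclases and natriuretic peptide receptors had one in 4 of 8, at Npr1, Npr2, Npr3 and Gucy2e, and phosphodiesterases in 7 of 15, shares close to that of all genes. Of the natriuretic peptides, Nppc had a peak and the cardiac Nppa and Nppb had none. Nppc is of high CpG content, and Nppa and Nppb are of low CpG content.

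**Figure D5:**
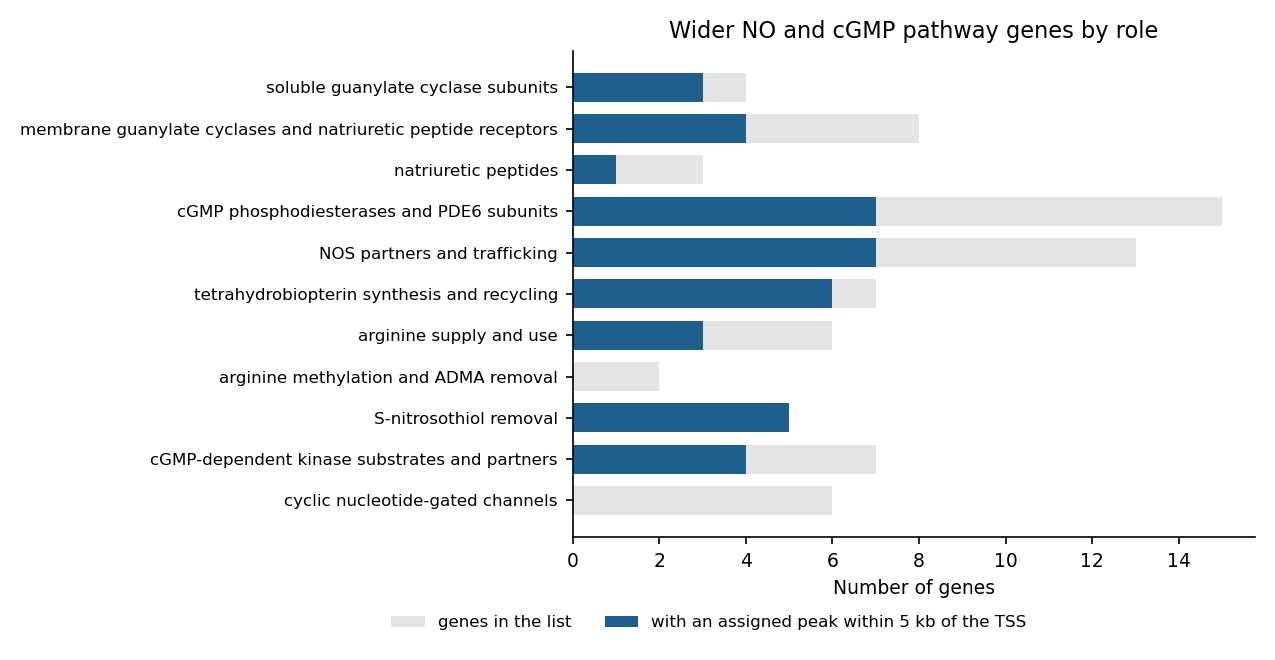
Number of genes in each role of the wider pathway list (light bars) and of those with an assigned peak within 5 kb of the TSS (blue bars). The bar is filled for 5 of 5 genes of S-nitrosothiol removal and empty for the 6 cyclic nucleotide-gated channels and the 2 genes of arginine methylation and ADMA removal.

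The wider list was also divided by CpG content. Of the 57 pathway genes with a promoter in the table, a peak within 5 kb of the TSS was found for 21 of 26 with high CpG content, beside 68.3% of all protein-coding genes of that class. It was found for 9 of 12 of the middle class, beside 42.1%, and for 2 of 19 of the low class, beside 10.5%. The 2 of low CpG content were Gucy1b1 and Pde6d, named after their values were seen. The part of CpG content in the counts by role was not tested.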

How the data were processed

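Libraries were put into groups by their labels. The authors aligned reads to mm10 with STAR 2.4.2a, took out duplicates with Picard 1.136, unified the peaks called in 2 or more of the 3 ChIP libraries, and used HOMER 4.7 for annotation. Their processing notes also name FastQC 0.11.2. The deposited treatment and input reads are a signal, the mean number of reads per peak after the authors set libraries to the same depth. The deposited enrichment is a ratio of treatment over input averaged by the authors. As deposited, the p-value of each of the 17435 peaks is 0, and it was not used. The list holds no value per library, so no SD or test is given.

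The members and lists were chosen with earlier results of these data known. Start sites came from curated RefSeq transcripts of GRCm38.p6 and GENCODE M21. Of 16788 peaks whose named transcript was in the reference, the deposited distance was within 2 bp of the reference distance in 12872 with downstream as positive, in 7 with upstream as positive and in 3909 with neither, so positive was read as downstream here, opposite to the legend of the list. Background genes were protein-coding genes with a curated transcript, matched by gene identifier or symbol. Sequences are those of RefSeq GRCm38.p6. The pathway genes named by rule are all soluble guanylate cyclase subunits, the 5 with the highest enrichment within 5 kb of the TSS and the gene with the most peaks, and not all of them are reported here. The splice donors, the Prkg1 peak on LINE-1 and the other pathway genes were taken up after values were seen. Code was tested on simulated sequences and intervals. Python 3.11.15, pandas 2.3.3, NumPy 2.4.6, pysam 0.24.0 and matplotlib 3.10.9 were used.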

Additional observations from a re-analysis of the deposited data

How the results depend on the processing

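Alternatives were a minimum enrichment of 5, TSS distances of 1 and 10 kb, reference start sites, gene flanks of 0 and 10 kb, merging of peaks closer than 1 kb, other motif searches, and CpG content in 1 kb. Counts were taken as alike within 1.5 times, and medians likewise, since the list gives no replicate spread. Of the values tried, 2 moved by more. The median enrichment of the 9 peaks was 7.67 by the authors' ratio and 3.82 as treatment over input reads, while that of the list was 6.5 and 3.12. The cause was not tested. The motif was in 8 of 9 peaks and in 3 when only the 300 bp at the peak centre were searched, a shorter window by construction. With a distance of 1 kb, 4 of the 10 genes had a peak near the TSS in place of 6, beside 41.1% and 45.1% of protein-coding genes. Leaving out matches on splice donors, chosen after seeing the data, gave 8 of 9. Alternatives that leave out 1 library at a time could not be run, since the list gives 1 mean per peak. No paired analysis was possible because the list holds no value per library. Few reads per peak, 36 to 103, limit how finely these peaks can be ranked.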
